A study of Caenorhabditis elegans with 2 samples.

Results

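The numbered nuclear hormone receptor genes of Caenorhabditis elegans were examined for promoter peaks of ELT-1, a zinc finger protein of the GATA family that sets the fate of epidermal cells in the embryo. The family was taken as every protein-coding gene of the Ensembl WBcel235 annotation whose symbol is nhr and a number. The receptors nhr-23 and nhr-25 were left out of it. This gave 267 members of 19985 protein-coding genes, and the other 19718 genes served as the comparison. ChIP-seq, which sequences the DNA recovered with a protein by an antibody, had been done on mixed-stage embryos of strain OP354, genotype unc-119(tm4063) III; wgIs354, in 1 group of 2 biological replicates. The strain is a hermaphrodite transgenic line that stably makes ELT-1 with a GFP and FLAG tag at its C terminus, per the labels. The labels do not give the promoter that drives the transgene, and whole embryos were used, so cells of all embryonic tissues were pooled. An antibody to GFP is named in the descriptions of the samples, whereas their antibody field reads elt-1. There was no second condition, and no untagged strain was analysed here.

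Nuclear hormone receptors are transcription factors with a zinc finger DNA-binding domain and a ligand-binding domain, and many respond to lipids, steroids or other small molecules. The family is greatly expanded in nematodes. Most of its members descend from an HNF4-like ancestor, and many lie in arrays of neighbouring copies on chromosome V. A few are conserved between nematodes, insects and vertebrates. In the worm, characterised members act in fat metabolism, detoxification, moulting, sex determination and neuronal identity. GATA factors bind DNA at sites built on the letters GATA, most often written with an A or T before them and an A or G after.

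A peak is a stretch of the genome where sequenced fragments pile up, and its summit is the base where they are densest. The sequences around summits at nhr promoters carry the comparison of GATA sites given later, so 8 of them are shown. They comprise the windows at nhr-119, nhr-140, nhr-175, nhr-3, nhr-48 and nhr-155, which rank among the 10 strongest nhr peaks, and the windows at nhr-58 and nhr-132, neighbours of nhr-155 in 1 gene cluster. Each is read 5′ to 3′ on the plus strand of build ce11, over 100 bases to each side of the summit or, for nhr-58 and nhr-132, over 50. Capitals mark the forms AGATAA and AGATAG, the forms TGATAA and TGATAG, and CGATAA, on either strand, so that a site on the minus strand appears as its complement, such as TTATCT or TTATCG.
nhr-119, II:2800890-2801090: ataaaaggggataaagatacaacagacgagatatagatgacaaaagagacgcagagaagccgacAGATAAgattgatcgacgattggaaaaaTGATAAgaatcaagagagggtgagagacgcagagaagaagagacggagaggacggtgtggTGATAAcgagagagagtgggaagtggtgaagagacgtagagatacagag
nhr-140, V:6989851-6990051: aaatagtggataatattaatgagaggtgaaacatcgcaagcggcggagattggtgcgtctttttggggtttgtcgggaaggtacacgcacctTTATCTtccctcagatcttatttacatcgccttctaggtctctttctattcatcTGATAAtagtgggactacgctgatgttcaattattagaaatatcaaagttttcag
nhr-175, V:13866482-13866682: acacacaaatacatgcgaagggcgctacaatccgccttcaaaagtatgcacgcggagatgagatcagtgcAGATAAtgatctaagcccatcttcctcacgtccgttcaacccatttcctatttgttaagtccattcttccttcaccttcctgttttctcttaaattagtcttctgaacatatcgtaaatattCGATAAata
nhr-3, X:14557924-14558124: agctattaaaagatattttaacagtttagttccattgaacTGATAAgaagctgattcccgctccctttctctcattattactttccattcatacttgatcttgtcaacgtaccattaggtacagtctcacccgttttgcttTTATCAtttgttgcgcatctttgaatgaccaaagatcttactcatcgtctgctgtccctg
nhr-48, X:15707385-15707585: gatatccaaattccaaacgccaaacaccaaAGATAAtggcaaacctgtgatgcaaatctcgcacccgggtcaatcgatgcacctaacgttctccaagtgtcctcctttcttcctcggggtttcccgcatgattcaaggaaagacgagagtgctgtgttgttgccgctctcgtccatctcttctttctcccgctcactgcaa
nhr-155, V:539112-539312: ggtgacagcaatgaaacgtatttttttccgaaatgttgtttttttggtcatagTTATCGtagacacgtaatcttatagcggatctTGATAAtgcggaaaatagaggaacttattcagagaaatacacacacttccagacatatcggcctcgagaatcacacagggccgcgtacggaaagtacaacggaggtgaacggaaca
nhr-58, V:532151-532251: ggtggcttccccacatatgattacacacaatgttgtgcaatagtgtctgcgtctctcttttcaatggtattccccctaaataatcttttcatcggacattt
nhr-132, V:534336-534436: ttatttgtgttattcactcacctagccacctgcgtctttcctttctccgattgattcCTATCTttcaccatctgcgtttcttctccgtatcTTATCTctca
The nhr-119 window held 3 sites of the 4 forms that begin with A or T. At nhr-140 there were 2, at nhr-175 there was 1 with a CGATAA near the right edge, and at nhr-58 none.

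Further, 15 of the 34 nhr promoter peaks held CGATAA within 100 bases of the summit, each a single time. These sites are shown for 14 of the peaks with 10 bases to each side, read on the strand that reads CGATAA, which is in capitals, in order of the signal of the peak.
nhr-168, V:13333575-13333600, minus strand: attaggccacCGATAAcagacaagat
nhr-175, V:13866664-13866689, plus strand: cgtaaatattCGATAAatattttcag
nhr-34, IV:9667200-9667225, minus strand: aacacatataCGATAAtgttacagag
nhr-155, V:539155-539180, minus strand: tacgtgtctaCGATAActatgaccaa
nhr-61, II:14818495-14818520, minus strand: attgtagactCGATAAgctcatcgac
nhr-68, V:11572979-11573004, plus strand: gttcactgaaCGATAAgaaacacgtg
nhr-139, V:6988323-6988348, minus strand: ttttatatgtCGATAAtgaaaattag
nhr-145, V:19087648-19087673, minus strand: gagaaaaaatCGATAAgtgcgctata
nhr-208, V:12094315-12094340, plus strand: gttggacggaCGATAAtcgggaaaca
nhr-1, X:17513754-17513779, minus strand: aaatgcatgaCGATAAatgcatgttg
nhr-19, II:9606093-9606118, minus strand: tagatcatgaCGATAAcacatttgga
nhr-127, V:16261037-16261062, plus strand: gggatatgggCGATAAgatcccgtgc
nhr-171, V:7511884-7511909, minus strand: cattataaaaCGATAAacatctgaca
nhr-132, V:534445-534470, plus strand: cacattgttcCGATAAactgtaagtt
Apart from the capitals, no base was shared by all 14 of these stretches. The middle of the site lay 6 to 95 bases from the summit, with a median of 42 bases over the 15 peaks.

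The share of genes with an ELT-1 peak at the promoter was higher among nhr genes than among other genes. The promoter window of a gene covered 1000 bp before and 200 bp after every annotated 5′ end of its transcripts, and a member was called occupied when a summit of the stringent peak list lay in it. That list holds 1400 peaks that the submitters had passed through the irreproducible discovery rate (IDR) procedure. The procedure compares the ranks of peaks between replicates, but a listed peak need not rank alike in both. Of the 267 members, 32 were occupied, a share of 11.99% with a 95% Wilson interval of 8.62 to 16.4%. Among all other protein-coding genes 690 of 19718 were occupied, which is 3.5% with an interval of 3.25 to 3.77%. The ratio of the shares was 3.42, and the intervals did not overlap. Wilson intervals cover counting error only, since the genes are not replicates and neighbouring paralogs are not independent. No test was made of the difference, because the family was chosen with earlier results of these data known.

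The ratio of the shares was lower when weaker peaks were included. The relaxed list of the pooled replicates holds 30000 peaks, background included, and the IDR list is the set of the 1400 with the highest signal in it. With the top 5000 relaxed peaks 67 members had a summit, 25.1% against 12.2% of other genes, a ratio of 2.05. With the top 10000 there were 86 members, 32.2% against 20.4%, a ratio of 1.58. With the whole relaxed list 153 members had one, 57.3% with an interval of 51.3 to 63.1%, against 42.1% of other genes, a ratio of 1.36. A relaxed summit in the window was found for 135 members in replicate 1, 50.6% against 42.2% of other genes. In replicate 2 there were 126, 47.2% against 37.8%, and 86 members had one in both replicates. The last, a count added after other values were seen, is 32.2% of members, against 22.7% of other genes. No summit of any list lay in the windows of 83 members, a count given for members only.

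Among the 27 symbol prefixes with at least 50 protein-coding genes, nhr ranked 1 by share of occupied genes. The next were unc with 8 of 94, or 8.51%, the histone genes his with 5.56% and the cuticle collagen genes col with 5.13%. No intervals were taken for the other prefixes, and the order was not tested. Families of fewer than 50 genes were not ranked. Of the 27 prefixes, 12 had no occupied gene, most of them chemoreceptor families such as str and srw. Prefixes reflect how genes were named and are not sets of equal kind: unc genes were named for uncoordinated movement of mutants and nhr genes for sequence.

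**Figure D1:**
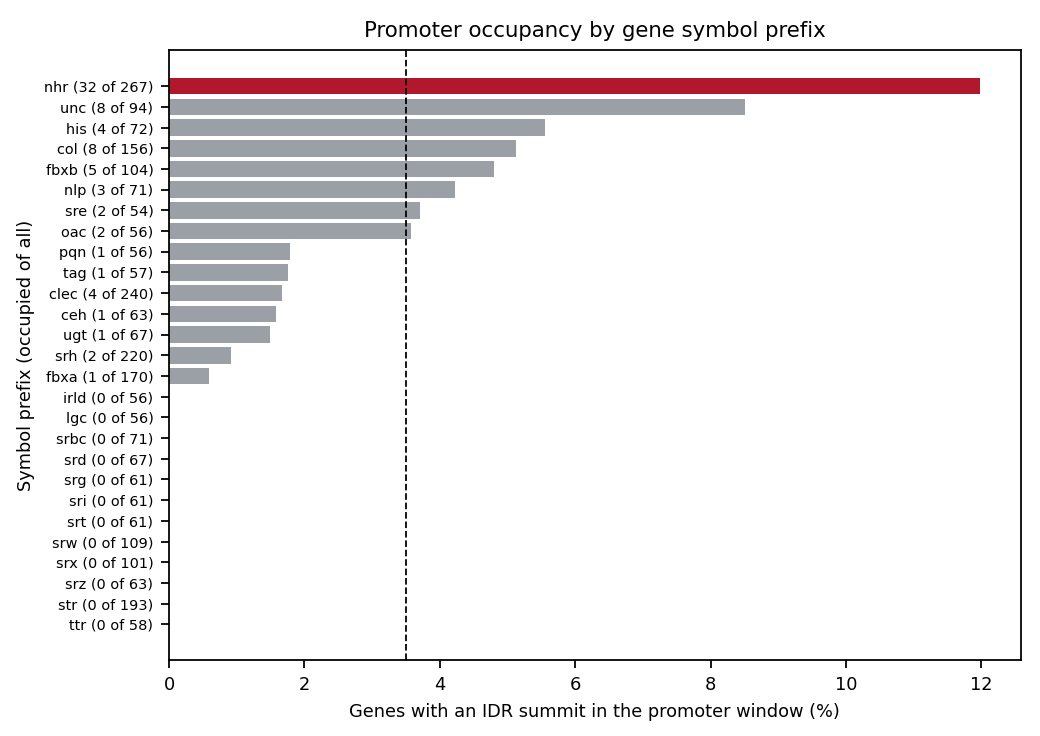
Share of genes with an IDR summit in the promoter window (x axis, percent) for each symbol prefix with at least 50 protein-coding genes (y axis, with the occupied genes of all genes). The red bar is the nhr family with 32 of 267, and the dashed line is the 3.5% of all genes outside the family.

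The 32 occupied members carried 34 distinct peaks. Their signal, the deposited value that the submitters' peak caller gave each peak, ran from 27.8 to 110 with a median of 40.99. The 585 other promoter peaks of the nuclear genome had a median of 38.7 and reached 823. By signal, then, the nhr peaks sat within the ordinary range of promoter peaks. The first of them in the IDR list, at nhr-119, ranked 68. Signal is comparable only within a list.

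The strongest peak lay at II:2800895-2801093, in intergenic sequence with its summit 390 bp upstream of nhr-119, and had a signal of 110. The overlapping peak of replicate 1 had a signal of 82.5 and ranked 43 in its list, and that of replicate 2 had 27.6 and ranked 188. Second was the peak at V:13333513-13333688, in the 5′ UTR of nhr-168, 202 bp upstream of the nearest 5′ end, with 97.8. It ranked 82 in replicate 1 and 149 in replicate 2. Both peaks were thus among the 200 highest of either replicate.

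The nhr-140 peak at V:6989892-6990013 had a signal of 92.5 and ranked 131 and 115 in replicates 1 and 2. At nhr-175 the peak at V:13866407-13866756, 109 bp upstream of the gene, had a signal of 85.2 and was higher ranked in replicate 2, at 56, than in replicate 1, at 292. The gene nhr-49 encodes an HNF4-like receptor that controls fatty acid desaturation and oxidation. It had 2 peaks, the stronger at I:9870056-9870405 with 70.3, ranked 138 and 228 in the replicates, and the weaker at I:9869101-9869450 with 27.8, ranked 2642 and 381. The weaker peak lay at the very end of the IDR list, at rank 1398.

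On the X chromosome, nhr-3 had overlapping peaks at X:14557849-14558198 and X:14558052-14558401, with 63.1 and 30.4. The same replicate peak overlapped both, ranked 207 in replicate 1 and 784 in replicate 2. The nhr-48 peak at X:15707310-15707659, with 62.1, ranked 243 and 235 in the replicates, among the closest pairs of ranks in the family. Its gene belongs to the group of daf-12 and nhr-8, receptors related to the vertebrate vitamin D receptor. The peak of nhr-62, an HNF4-like gene needed for long life under dietary restriction, had 61.4 and ranked 165 in replicate 1 but 1491 in replicate 2.

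Between 53 and 59 lay nhr-34 with 58.8, nhr-155 with 57.9, nhr-32 with 57.3 and nhr-61 with 53.2. From 40 to 46 came nhr-77 with 45.5, nhr-150 with 44.9, nhr-68 with 43.7, nhr-139 with 41.7, nhr-58 with 41.6, nhr-137 with 40.3 and nhr-145 with 40.2. The gene nhr-77 had a further peak with 29.5. Below 40 were the peak shared by nhr-94 and nhr-152 with 39.6, nhr-208 with 37.4, nhr-1 with 36.6, nhr-19 with 36.2, nhr-270 with 35.8, nhr-66 with 35.1 and nhr-127 with 33.6. The lowest were nhr-44 with 31.3, nhr-171 with 31.2, nhr-237 with 30.6, nhr-132 with 28.4 and nhr-43 with 28.1. Of the 34 peaks, 20 lay in the higher-signal 50% of the IDR list.

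Both replicates carried most of these peaks. Every nhr peak overlapped a relaxed peak of replicate 1, and 32 of 34 overlapped one of replicate 2, the exceptions being nhr-237 and nhr-132. Other promoter peaks were alike in this: all 585 overlapped a relaxed peak of replicate 1 and 574 of them one of replicate 2. In 23 of 34, or 67.6%, the overlapping peak was in the top 1400 of both replicates, against 52.5% of the 585 other promoter peaks. Only replicate 1 or only replicate 2 had it in its top 1400 in 4 peaks each, and in 3 peaks neither did. These were the weaker peak at nhr-77, ranked 1988 and 2443, that at nhr-43, ranked 1457 and 3342, and that at nhr-237, ranked 1531 in replicate 1. The widest gap was at nhr-19, ranked 1141 in replicate 1 and 11382 in replicate 2. Across the 32 nhr peaks found in both lists, Spearman's rho between the replicates' signals was 0.48, and across 574 other promoter peaks it was 0.33. Both figures are descriptions over peaks that share a control set and were already chosen for their rank in the pool.

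**Figure D2:**
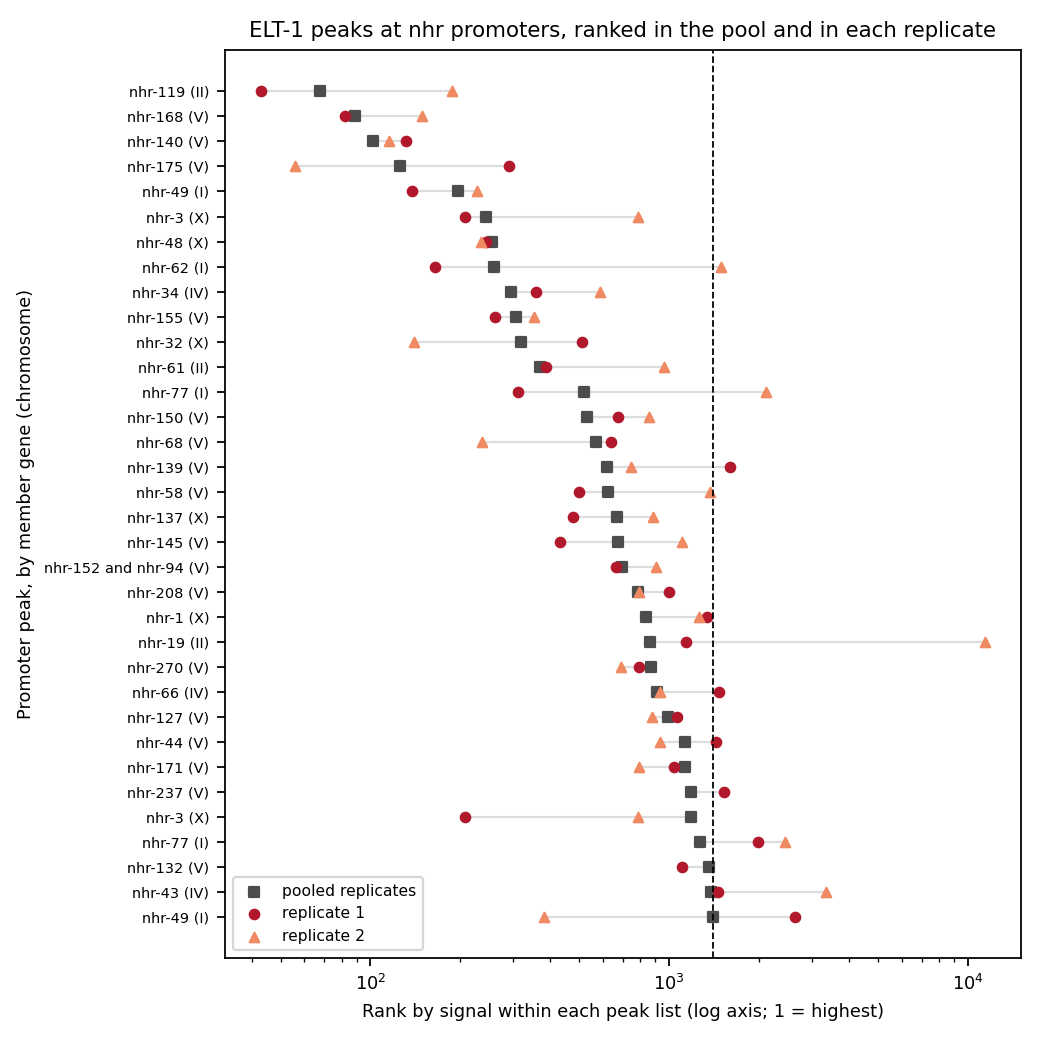
Rank of each of the 34 nhr promoter peaks (y axis, by member gene and chromosome, strongest at the top) in the pooled list, in replicate 1 and in replicate 2 (x axis, log scale, 1 is the highest signal). The dashed line is rank 1400; most markers lie left of it, nhr-237 and nhr-132 have no replicate 2 marker, and both nhr-3 peaks show the same replicate peaks.

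The peaks lay about as close to 5′ ends as other promoter peaks did, and mostly belonged to a single gene. For 33 of 34 the nearest 5′ end was that of a member, and the exception was the nhr-68 peak at V:11572777-11573126, which lay nearer to its divergent neighbour H12C20.7. In 29 of the 35 pairs of a member and a summit the summit was upstream of the nearest 5′ end of the member. The window itself covers 1000 bp upstream and only 200 bp downstream, so it favours upstream summits. The median distance in these pairs was 275 bp. To the nearest 5′ end of any gene the median was 261.5 bp for nhr peaks and 242 bp for the 585 other promoter peaks. Summits fell in intergenic sequence in 22 peaks, in introns in 6, in coding sequence in 3 and in annotated 5′ UTRs in 3. The intergenic share was 64.7%, against 68.9% of other promoter peaks. Only 1 peak served a pair of members: nhr-152 and nhr-94 diverge from each other across a gap of 14 bp. The summit of the peak at V:7686258-7686607 lay 51 bp downstream of the nearest annotated 5′ end of nhr-152. It lay 98 bp upstream of that of nhr-94. The 32 occupied members therefore do not rest on a few shared peaks.

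The share of occupied members was above that of other genes on 5 of the 6 nuclear chromosomes. Chromosome V holds 167 of the 267 members, and 18 of them were occupied, 10.8% with an interval of 6.93 to 16.4%, against 2.3% of the other genes of that chromosome. On the X chromosome 5 of 22 members were occupied, 22.7% with an interval of 10.1 to 43.4%, against 5.32%. Chromosome II had 3 of 15, which is 20% with an interval of 7.05 to 45.2%, against 3.47%, and chromosome I had 3 of 22, which is 13.6% with an interval of 4.75 to 33.3%, against 3.89%. On chromosome IV 3 of 33 members were occupied, 9.09% with an interval of 3.14 to 23.6%, against 2.86%, and these intervals overlapped. Chromosome III had 0 of 8, which allows a share of up to 32.4% by the same interval, against 3.8%. Away from chromosome V 14 of 100 members were occupied, 14% against 3.81%, so the difference was also present without the chromosome that holds most of the family.

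**Figure D3:**
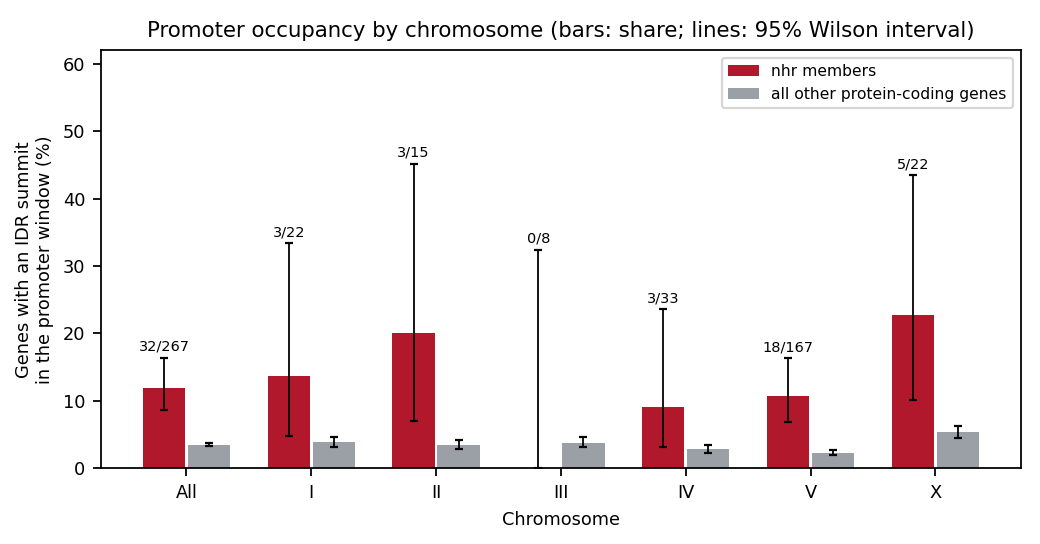
Share of genes with an IDR summit in the promoter window (y axis, percent) for nhr members (red) and all other protein-coding genes (grey), over all genes and by chromosome (x axis). Lines are 95% Wilson intervals and the counts of occupied members stand above the red bars, from 0 of 8 on III to 5 of 22 on X.

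Within chromosome V, cut into 3 parts of equal length after the values were seen, 10 of the 18 occupied members lay in the middle. There 10 of 41 members were occupied, 24.4% with an interval of 13.8 to 39.3%, against 3.36% of the other genes. In the left part, which holds 78 members, 5 were occupied, 6.41% against 1.76%, and in the right part 3 of 48, 6.25% against 1.63%. Members and other genes thus both had their higher share in the middle of the chromosome.

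Many members lie in clusters, and their occupancy was counted apart. A cluster was taken as 3 or more members, each within 20 kb of the next. There were 25 clusters with 133 members, 17 of them on chromosome V. In clusters 9 of 133 members were occupied, 6.77% with an interval of 3.60 to 12.4%. Of the 40 members in pairs 8 were occupied, 20% with an interval of 10.5 to 34.8%, and of the 94 single members 15, which is 15.96% with an interval of 9.92 to 24.7%. On chromosome V alone 8 of 102 clustered members, 7 of 26 in pairs and 3 of 39 single members were occupied, so that clustered and single members were about level there. The difference between the classes was not tested. The interval for clustered members overlapped that of all other genes, 3.25 to 3.77%, as well as those of pairs and single members. The relaxed list gave 50.4% of clustered members, 72.5% of those in pairs and 60.6% of single ones.

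Occupied members lay in 6 of the 25 clusters. The cluster at V:517801-541485 had 3 occupied members of 4. Its genes nhr-58, nhr-132 and nhr-155 had signals of 41.6, 28.4 and 57.9, each from a peak of its own whose window is shown above, while nhr-210 had no summit in any list. In the cluster at V:6980587-7000651, 2 of 7 members were occupied, nhr-139 with 41.7 and its upstream neighbour nhr-140 with 92.5. Their gene bodies are 90 bp apart. The nhr-139 summit lay 521 bp upstream of nhr-139, inside nhr-140. Of the other members of that cluster, nhr-161 reached 12.7 in the pooled relaxed list, nhr-107 and nhr-42 shared a peak of 9.93, nhr-162 had 6.86 and nhr-163 had no pooled peak.

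A further 4 clusters had 1 occupied member each. They were nhr-237 among nhr-178, nhr-177, nhr-179, nhr-117, nhr-110 and nhr-238, then nhr-44 among nhr-219, nhr-195 and nhr-143, nhr-208 among nhr-206, nhr-207, nhr-209, nhr-154, nhr-153 and nhr-136, and nhr-137 beside nhr-120 and nhr-173 on X. In these the unoccupied members reached at most 23.5 in the pooled list, at nhr-179. In the 8 clusters of at least 7 members, 4 of 70 members were occupied. The cluster of 12 members at V:451451-497297 and the clusters of 10 members at V:2192485-2235180 and V:3844429-3908452 had none.

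Paralogs share sequence, so the uniqueness of the bound sequence was measured. In all 34 nhr windows, 100 bp to each side of the summit, every word of 36 bases occurred once in the genome, which was so in 95.7% of the other promoter peaks. Over whole promoter windows 95.7% of such words were unique for members and 94.6% for other genes. Between any pair of nhr windows the longest shared word had a median of 8 bases and at most 14, between nhr-119 and nhr-237. Read length was unknown, and 36 bases was a chosen length.

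Promoter space was measured too, since a longer window can hold more peaks. The merged windows of members came to 0.393 Mb with 34 summits, or 86.5 per Mb, against 22.6 per Mb for other nuclear genes. On chromosome V the values were 74.0 and 15.2 per Mb. The median distance from a gene to its upstream neighbour was 1560 bp for members and 929 bp for other genes. Among genes with under 500 bp of upstream space 14.5% of members and 2.74% of other genes were occupied, and from 2000 to 5000 bp 17.5% and 3.29%. Above 5000 bp the shares were 16% and 3.95%. Between 500 and 1000 bp they were 6.67% and 4.01%, and between 1000 and 2000 bp 3.70% and 4.01%, where the intervals overlapped. The intervals of members and other genes were therefore apart at both ends of the range of upstream distances and overlapped in the middle of it.

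**Figure D4:**
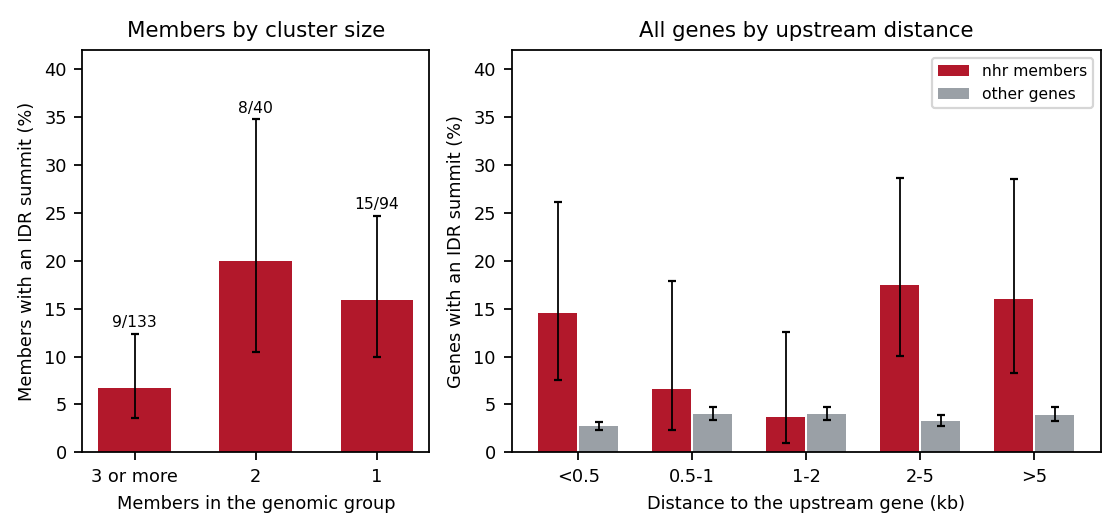
Left, share of nhr members with an IDR summit (y axis, percent) in genomic groups of 3 or more, 2 or 1 members (x axis), from 9 of 133 to 8 of 40. Right, share of nhr members (red) and other genes (grey) by distance to the upstream gene (x axis, kb); lines are 95% Wilson intervals, and the bins from 0.5 to 2 kb are those where the intervals overlap.

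In the IDR list, the GATA content of nhr promoter peaks was that of promoter peaks at large. Within 100 bp of the summit, 20 of 34 nhr peaks, 58.8% with an interval of 42.2 to 73.6%, held 1 of the 4 forms that begin with A or T on either strand. Of the 585 other promoter peaks 59.1% did. In windows of the same length tiled over promoters without an IDR summit, the share was 41.3% for members and 38.3% for other genes. The form AGATAA, with or without other forms, was in 41.2% of nhr peaks and 36.6% of other promoter peaks. It was in 14.6% and 13.0% of the tiles of unoccupied member and other promoters. Of the 20 nhr peaks in the higher-signal 50% of the list 15 held a site, and of the other 14 peaks 5 did. This split is given for nhr peaks only. Among pooled relaxed peaks ranked 1401 to 5000, 46.7% in member windows and 43.9% in windows of other genes held a site.

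CGATAA, a form outside those 4, was in 15 of 34 nhr peaks, 44.1% with an interval of 28.9 to 60.5%. It was in 17.1% of other promoter peaks, with an interval of 14.3 to 20.4%, and in 6.98% and 9.13% of the tiles. Among all 2080 words of 6 bases, each counted with its complement, it had the greatest difference between nhr and other promoter peaks, 27.0 percentage points. That ranking was made after the values were seen, and the next word, GTTCAA, stood 26.2 points apart, with 35.3% and 9.06%. In 7 peaks CGATAA was present without any of the 4 forms, in 8 with one of them, and 7 peaks had neither. On chromosome V 10 of 17 nhr peaks and 14.1% of the 92 other promoter peaks held CGATAA, and on other chromosomes 5 of 17 nhr peaks did.

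The CGATAA share was also taken in other sets of peaks, chosen after the first values were seen. With the top 1400 peaks of replicate 1 in place of the IDR list, 43.3% of nhr and 16.3% of other promoter peaks held the word, and with those of replicate 2 33.3% and 17.2%, where the intervals of 20.2 to 49.7% and 14.3 to 20.5% just met. Among pooled relaxed peaks ranked 1401 to 5000, 5 of 45 in member windows, or 11.1%, and 13.6% of those in other windows did. IDR peaks outside promoter windows whose nearest 5′ end was that of a member had 18.4%, and those nearest to another gene 17.9%. The higher CGATAA share was thus seen in the strongest promoter peaks of the family, with the intervals apart on chromosome V. In its strongest promoter peaks on other chromosomes the interval overlapped that of other promoter peaks. The intervals of its weaker and more distant peaks also overlapped those of other genes.

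**Figure D5:**
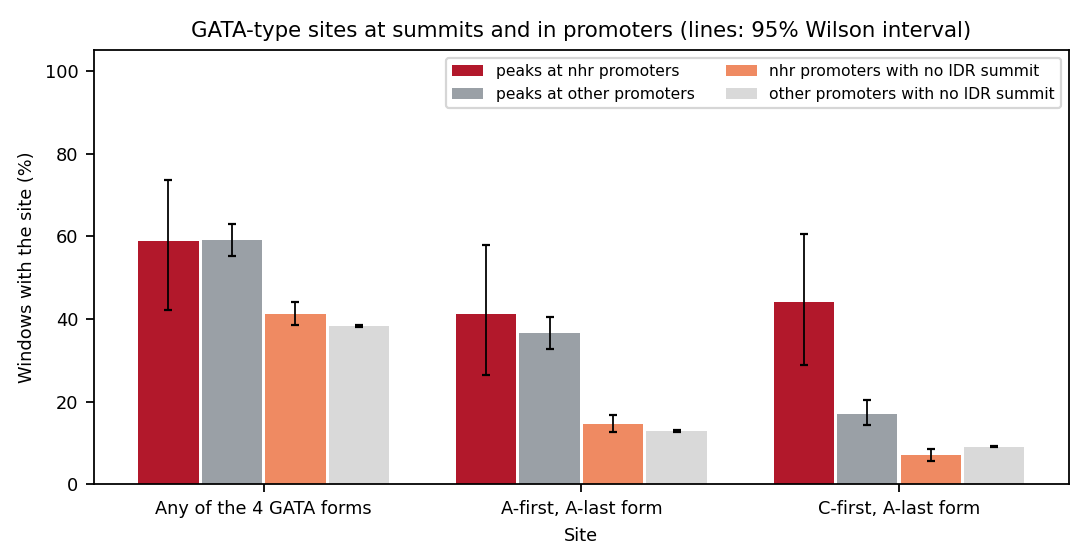
Share of windows of 100 bp to each side (y axis, percent) that hold any of the 4 GATA forms, AGATAA (labelled A-first) or CGATAA (labelled C-first), in nhr promoter peaks, other promoter peaks and tiles of promoters without an IDR summit. Lines are 95% Wilson intervals. With all chromosomes together, nhr and other promoter peaks are level for the 4 forms, at 58.8 and 59.1%, and apart for CGATAA, at 44.1 and 17.1%.

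Members with known functions were grouped into lists drawn up from general knowledge of the family, and 6 of the 27 listed members were occupied, 22.2% with an interval of 10.6 to 40.8%, against 26 of the 240 members in no list, 10.8% with an interval of 7.50 to 15.4%. In the lipid and diet list 4 of 10 were occupied. They were nhr-49 with 70.3, nhr-62 with 61.4, nhr-68 with 43.7 and nhr-66 with 35.1. The product of nhr-68 acts in the switch to the propionate shunt when vitamin B12 is low, and that of nhr-66 is a partner of NHR-49. Other listed partners in those same pathways were not occupied. In the pooled relaxed list nhr-10, which acts upstream of nhr-68, had 8.84, nhr-13 had 8.03 and nhr-80, a regulator of oleate synthesis, had no peak. Of the others, nhr-114, which protects the germline on certain diets, had 15.7, nhr-69 had 12.4 and nhr-64 had 9.60.

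Of the 7 conserved receptors 1 was occupied, nhr-48. The unoccupied ones were nhr-41 with 13.2 in the pooled relaxed list, nhr-91 with 9.73, nhr-6, the NR4A homologue, with 6.87, and nhr-8, nhr-67, the tailless homologue, and nhr-85, a Rev-erb homologue, with no pooled peak. Outside its promoter window nhr-91 had an IDR peak of 38.9 in an intron, 1017 bp from its nearest 5′ end. In the development list 1 of 6 was occupied, nhr-1 with 36.6. There nhr-60 had 16.8 and nhr-2 9.22, while nhr-40, which acts in muscle development, had no summit in any list. None of the 7 members listed for xenobiotic, stress and immune responses was occupied. The hypoxia target nhr-57 came closest with 18.7, ranked 1920 in replicate 1 and 1001 in replicate 2, ahead of nhr-28 with 10.4, nhr-86 with 9.18, nhr-45 with 7.78 and nhr-14 with 5.89. No summit of any list was at nhr-176, which acts in the response to thiabendazole. With 6 to 10 genes a list, these shares cannot be told apart.

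A last list held 7 receptors outside the family, also chosen with earlier results of these data known. Of these 3 were occupied, 42.9%, against 11.99% of members and 3.5% of all genes outside the family. With 7 genes this share is loose, and it was not tested. The moulting regulators nhr-23 and nhr-25, which are no members here, were occupied with 55.5 and 35.3, and sex-1, a counter of X chromosomes, with 29.7. Dauer regulator daf-12 had 4.94 in the pooled relaxed list and the motor neuron gene unc-55 had 8.49. No pooled peak was at fax-1 or odr-7, genes of neuronal identity.

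Just below the IDR list, the 10 unoccupied members with the highest pooled relaxed signal ran from 27.5 to 23.3, next to the lowest IDR peak at 27.82. They were nhr-56, nhr-46, nhr-260, nhr-116, nhr-256, nhr-149, nhr-255, nhr-90, nhr-179 and nhr-47. Their replicates were often unequal. At nhr-56, with 27.5, the best peak ranked 1091 in replicate 1 and 14544 in replicate 2, and at nhr-149, with 25.9, the ranks were 1025 and 22311. At nhr-116, with 26.5, they were 2009 and 1309. Among all 121 unoccupied members with a pooled relaxed summit the median best signal was 9.15, and among other unoccupied genes it was 8.99.

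Peaks outside the promoter windows added members. IDR summits lay from 1000 to 5000 bp upstream of 32 members, 11.99% against 4.84% of other genes, and in the gene body beyond the promoter window of 10, 3.75% against 1.65%. With a summit in the promoter window or in either of these places there were 55 members, 20.6% against 9.07% of other genes. A narrower count took only peaks whose nearest 5′ end was that of the member, and it is given for members only. By it there were 24 distinct peaks at 19 members, of which 10 had no promoter summit. The strongest was at X:12671689-12671964, 3970 bp from nhr-17, with 179, above any promoter peak of the family. It held 3 GATA sites. Next was X:13744660-13744848, 2559 bp from nhr-71, with 115. The gene nhr-46 had 3 such peaks, of 68.9, 48.1 and 30.3, nhr-28 had 1 of 57.1 and nhr-35 1 of 56.0. These 5 genes were chosen for their signals after these were seen, apart from nhr-28 and nhr-46, and none had an IDR summit in its promoter window. Further peaks of this kind were at nhr-48, an upstream one of 51.5 and an intronic one of 51.3, and at nhr-1, nhr-270 and nhr-61, with 57.4, 50.1 and 48.7.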

How the data were processed

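ChIP-seq peak lists of ELT-1 were used as deposited, on build ce11, for 2 biological replicates of 1 group. The authors called relaxed lists for each replicate and the pool against a shared control set and took the IDR list from these, per the file lists deposited with the records. The signal of a peak is the deposited column 7; lists have no common scale, so signals were compared only within one. The deposited offset of each summit (unit other, in bp) gave its position. The relaxed lists hold 30000, 26001 and 30000 peaks for replicate 1, replicate 2 and the pool. The sources used here do not give the aligner, peak caller or IDR threshold. Read depth is unknown, so intervals cover counting error only.

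Summits were assigned to promoter windows of 19985 protein-coding genes with 29796 annotated 5′ ends (Ensembl release 115), of which 12 genes are mitochondrial. Sequences came from the RefSeq genome of WBcel235. Shares carry 95% Wilson intervals. Members and lists were chosen with earlier results of these data known, so no test was made. Genes named are the occupied members, the 10 unoccupied members with the highest pooled signal, the listed members, nhr-23 and nhr-25, and the members of the clusters with most occupied members, where a tie extended 3 clusters to 6. Counting was tested on simulated data. Alternatives covered window, assignment, 5′ ends, peak list, replicate, cluster definition and motif. The tools were matplotlib 3.10.9, SciPy 1.17.1, pandas 2.3.3 and numpy 2.4.6 under Python 3.11.15.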

Additional observations from a re-analysis of the deposited data

How the results depend on the processing

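Of the values recomputed under alternatives, 81 moved little and 9 moved by more than the set margin. With the higher-signal 50% of IDR peaks, occupied members fell to 21, those on chromosome V to 11, those in clusters to 5 and distinct peaks to 20, while the ratio to other genes was 4.73; that list is 700 peaks long by construction. With clusters of 2 or more members, 17 occupied members were clustered and 15 were not. When only AGATAA was counted, 41.2% of nhr peaks held a site. With the forms that begin with C added to the 4, 79.4% did, against 70.3% of other promoter peaks. Leaving out either replicate gave 32 to 35 occupied members, ratios of 3.45 to 3.88, 17 to 23 on V, 12 to 15 elsewhere, 9 to 10 in clusters, 23 to 25 outside, 30 to 36 peaks, 61.1 to 66.7% with a GATA site, 4 to 6 listed members, 126 to 135 members in the relaxed lists and rank 1 among prefixes. Each single-replicate list shared 26 of the 32 members with the IDR list. Windows of 500 bp upstream to 100 bp downstream gave 24 members (8.99% against 2.45%), and 2000 bp upstream 38 (14.2% against 4.99%). Under all 8 alternatives 10 members were occupied: nhr-3, nhr-58, nhr-61, nhr-119, nhr-140, nhr-145, nhr-150, nhr-152, nhr-155 and nhr-175. No paired analysis was possible because there was 1 group. Unknown read depth and 2 replicates of 1 line limit how firmly any single weak peak can be read.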
